A study of Rattus norvegicus with 6 samples.

Results

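Collagens are the triple-helical proteins of the extracellular matrix, and 44 of the 29884 genes counted in these rat trigeminal ganglia encode a collagen chain. They were taken by symbol and count: every symbol of the form Col, a number, the letter a and a number, with at least 10 counts over the 6 libraries. The members were chosen with earlier results of these data known. All 44 symbols of that form met the minimum, and the lowest sum was 35 counts. They comprised 11 fibrillar chains, 6 basement membrane chains of type IV and 27 other chains.

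Facial sensation is relayed by neurons whose cell bodies sit in the trigeminal ganglion. All 6 samples came from wild type rats, with no strain, age or sex in the labels, after constriction injury to the infraorbital nerve, which carries facial sensation (CCI-ION, a model of trigeminal neuralgia). The 3 injury samples had the constriction alone, labelled day 14, 15 and 16 after injury. The 3 conduit samples had the constriction and the treatment named SFM-Gel-light @NGC, which the series title describes as a light-driven bioactive nerve conduit giving decompression and photosynthetic oxygenation, labelled day 17, 18 and 19. No uninjured ganglion is among them, so a level here is never a change from normal tissue, and the labelled days of the groups do not overlap. By the labels, batch 1 was injury samples 1 and 2, batch 2 was injury sample 3 with conduit sample 1, and batch 3 was conduit samples 2 and 3. Nothing in the labels ties a sample to its own animal, so p-values measure only the spread between these samples, which may be technical.

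Each collagen is a trimer of chains that share long runs of glycine repeats. Fibrillar collagens form the tensile fibres of the connective tissue sheaths and are made mainly by fibroblasts. Type IV collagen forms a sheet-like network under endothelium and around each Schwann cell and axon unit, and is joined there by laminin, nidogen and perlecan. Chains need hydroxylation and the chaperone HSP47 to fold in the endoplasmic reticulum. The remaining collagens decorate fibrils, form beaded filaments or span the cell membrane.

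The type IV chains are encoded in head-to-head pairs that are read outward from a shared stretch of DNA. In the RefSeq promoter windows of the rat build GRCr8, which is later than the build of the counts, Col4a2 starts at 84885520 on the minus strand of chromosome 16 and Col4a1 at 84885597 on the plus strand. Only 76 bases lie between these starts. The starts of Col4a4 and Col4a3 on chromosome 9 are 412 bases apart in the same sense, and those of Col4a6 and Col4a5 on chromosome X 1414 bases. The stretch between Col4a2 and Col4a1 is shown because both of these genes were higher in every conduit library, and the bases upstream of Col1a2, the most abundant chain per length, because its groups overlapped. Both are given 5′ to 3′ on the plus strand, chr16:84885521-84885596 and chr4:33518307-33518556, with capitals for matches, on either strand, to the TATA box (letters TATAAA), the CCAAT box (its own letters) and the GC box (letters GGGCGG).

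Col4a2 to Col4a1: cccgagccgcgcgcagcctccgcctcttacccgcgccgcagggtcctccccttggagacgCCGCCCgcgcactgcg

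Col1a2 upstream: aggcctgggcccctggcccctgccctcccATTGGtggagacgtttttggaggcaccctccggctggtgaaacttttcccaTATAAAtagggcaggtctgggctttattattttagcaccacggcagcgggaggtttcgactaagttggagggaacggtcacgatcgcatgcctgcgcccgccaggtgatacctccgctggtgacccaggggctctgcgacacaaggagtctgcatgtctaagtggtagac

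The Col4a2 to Col4a1 stretch is 78.9% G and C and holds 1 GC box on the minus strand, while the Col1a2 stretch is 58.4% G and C and holds a TATA box and, on the minus strand, a CCAAT box. Windows were found for 35 of the 44 chains. Of these 35, 19 (54.3%) held the GC box on either strand, and 5 of those 19 were type IV genes. Counted by window, as for all genes, it was in 20 of the 38 collagen windows (52.6%) and in 33.1% of all 33469 windows of 300 bases. The windows of Col4a1 and Col4a2 overlap, and the GC box shown lies in both, so it was counted for each. The windows listed for Col24a1 also overlap each other, as do those for Col6a5. Collagen windows were also richer in G and C, with a median of 59.3% against 51.7% over all windows; how far this sets the number of GC boxes was not tested. The TATA box was in 4 of the 38 collagen windows (10.5%) against 14.2% of all windows and the CCAAT box in 12 (31.6%) against 37.5%. A match is a run of letters and not a measured binding site.

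The libraries held 40172473 to 41903629 counts. In 37 of the 42 tested chains injury sample 1 was the lowest injury library, and in 37 conduit sample 3 was the lowest conduit library; over all 16478 genes tested these shares were 41.4% and 41.7%. Their depths were 40940555 and 41903629 counts. Summed over fibrillar chains, injury samples 1 to 3 were at 2198, 4606 and 3769 CPM (library-scaled counts, with TMM scaling) and conduit samples 1 to 3 at 4612, 4135 and 2994. Injury sample 1 and conduit sample 3 thus lay lowest in their groups, and they were in different batches. Sensory neuron markers were highest in the same 2 libraries, at 9277 CPM in injury sample 1 and 10248 in conduit sample 3 against 6689 to 8197 in the other 4. The part of tissue composition in the collagen levels was not tested. In bulk tissue, fewer cells of a type and less RNA per cell cannot be told apart.

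Per length, type I and type III collagen were the most abundant. Col1a2 averaged 217 FPKM (fragments scaled to gene length and library depth) over the 6 libraries, Col1a1 203 and Col3a1 161. Col4a1 followed at 73.8 FPKM, Col5a3 at 54.6 and Col4a2 at 51.2. The most abundant chains outside these classes were Col15a1 at 29.7 FPKM and Col6a1 at 26.1. Of the 44 chains, 11 averaged under 1 FPKM, and Col17a1, a hemidesmosome chain of skin, and Col6a4 were too low to be tested.

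**Figure D1:**
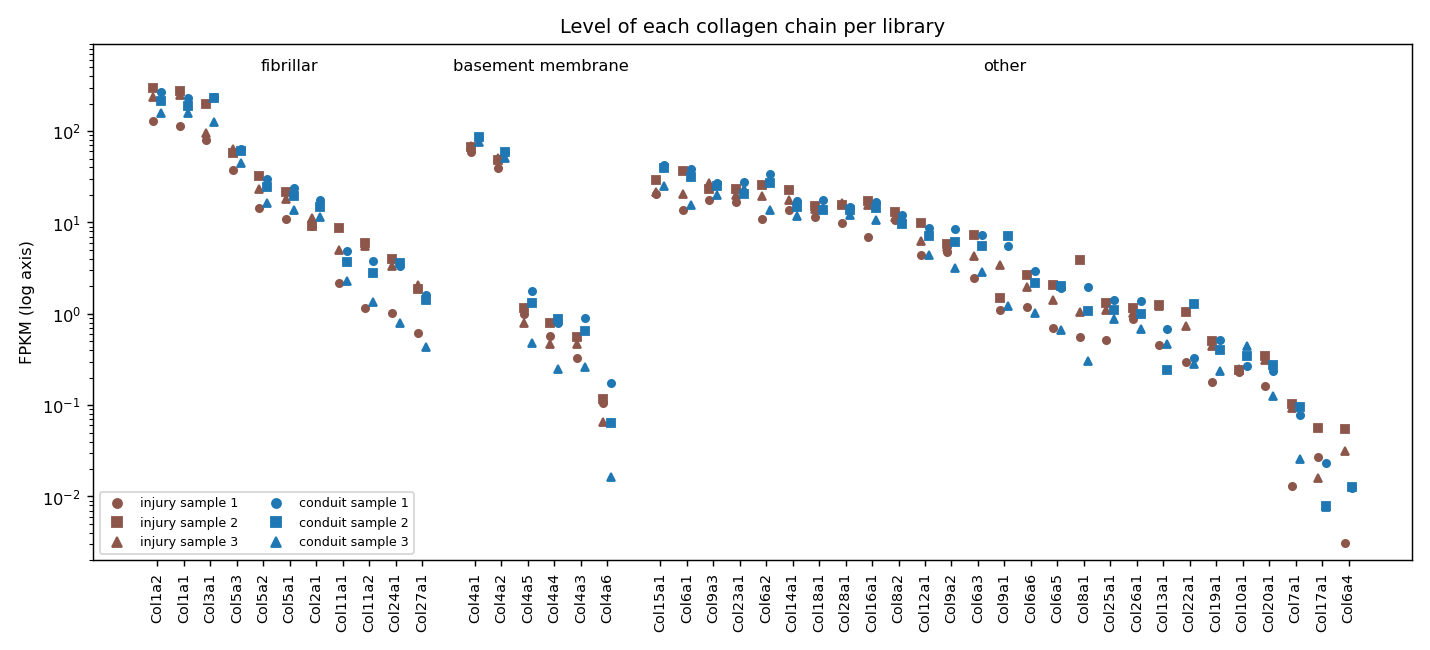
FPKM of each of the 44 collagen chains (log axis) in the 6 libraries, by class and ordered by mean level; brown symbols are injury and blue are conduit libraries. Col1a2, Col1a1 and Col3a1 lie above all others by mean level, and type IV levels fall from Col4a1 and Col4a2 to 4 chains near or below 1 FPKM. Col6a4 is listed at 0 in conduit sample 3 and is not drawn there.

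No collagen chain passed the test between groups. The edgeR quasi-likelihood test called 0 of 42 tested chains at an adjusted p under 0.05, where it called 0.00607% of all genes tested, a single gene. At an unadjusted p under 0.05 it found 4 chains higher (Col4a1, Col2a1, Col15a1 and Col4a2; 9.52%), where the share over all genes was 2.99%, and 0 lower, where it was 2.36%. Conduit libraries all lay above injury libraries for 4 chains (Col4a1, Col4a2, Col2a1 and Col10a1; 9.52%, against 5.41% of all genes) and below them for 0 (4.22% of all genes). DESeq2 called 2 of 44 chains, Col4a1 and Col2a1, both higher (4.55%, against 1.15% of the genes it tested). Over the 42 chains the median log2 fold change, conduit over injury, was 0.13, with 29 higher and 13 lower, beside 0.00173 over all genes.

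**Figure D2:**
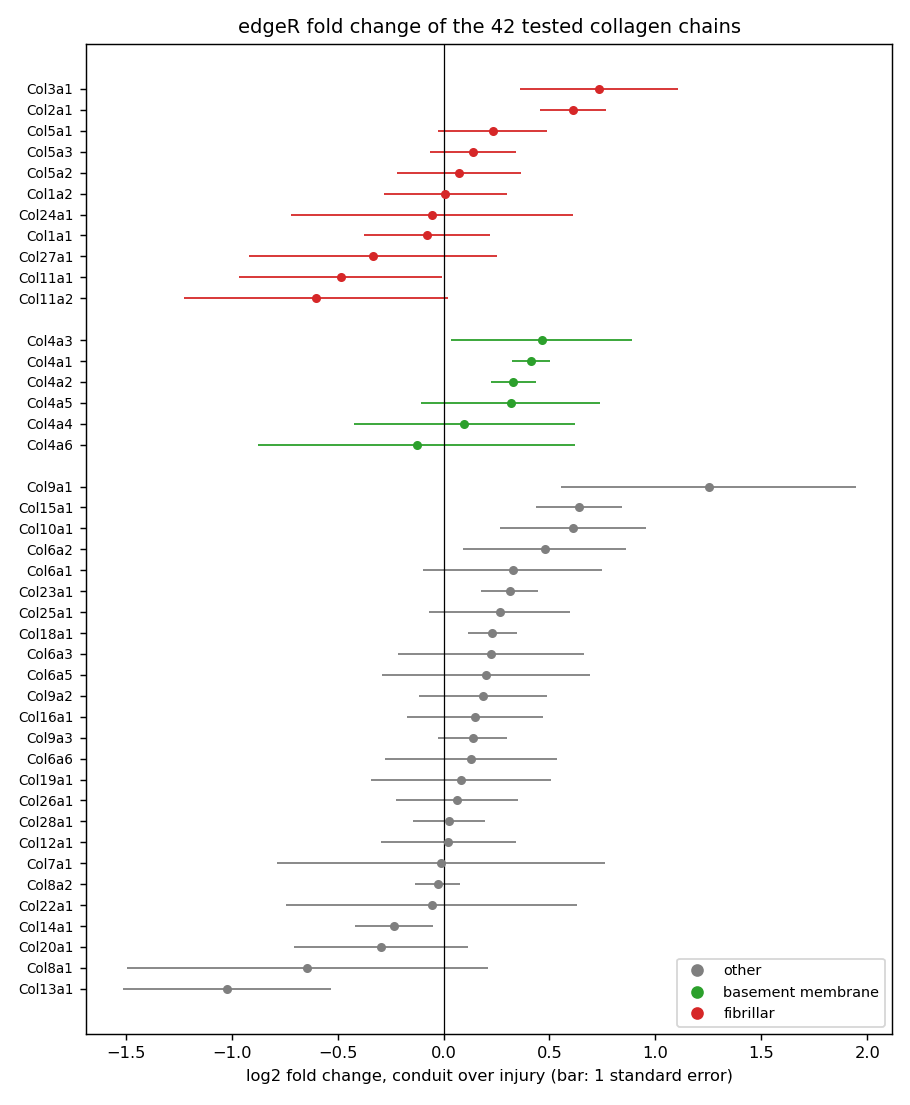
The log2 fold change of conduit over injury for each of the 42 tested chains, from edgeR, with bars of 1 standard error; red is fibrillar, green basement membrane and grey other. Values run from -1.02 for Col13a1 to 1.25 for Col9a1, and the bars of Col4a1 and Col4a2 are short and lie wholly above 0. Bars of other chains also lie wholly above 0, such as Col2a1, Col15a1 and Col3a1, or wholly below it, such as Col13a1 and Col14a1.

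Type IV collagen was the class whose main chains separated the groups. Col4a1 and Col4a2 are the chains of the widespread type IV trimer. Col4a1 was at 394, 414 and 443 CPM in injury samples 1 to 3 and at 564, 580 and 522 in conduit samples 1 to 3. Its groups did not overlap, with means of 417 ± 24.5 and 556 ± 30.0 CPM (SD, n = 3). That is 1.33-fold (log2 fold change 0.41, SE 0.09), with an edgeR adjusted p of 0.533 and a DESeq2 adjusted p of 0.00165. Col4a2 was at 253, 292 and 312 CPM in injury and 367, 376 and 333 in conduit. Again every conduit library was higher, by 1.26-fold (log2 fold change 0.33, SE 0.11; edgeR adjusted p = 0.792; DESeq2 adjusted p = 0.208). In batch 2, with a single library per group, Col4a1 differed by 0.35 and Col4a2 by 0.23. With injury sample 1 and conduit sample 3 both left out they were 0.42 and 0.31, and leaving out any 1 library moved Col4a1 between 0.38 and 0.46 and Col4a2 between 0.26 and 0.40.

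The main type IV chains were also the steadiest of the abundant collagens. Among the 19 chains that averaged at least 10 FPKM, Col4a1 had the smallest within-group coefficient of variation by the mean of both groups, 5.87% in injury and 5.40% in conduit, and Col4a2 the next, 10.5% and 6.31%. Low spread was not limited to type IV: this coefficient was 5.96% and 11.5% for Col8a2, below Col4a2 in injury, and 10.4% and 10.3% for Col18a1. For Col1a1 it was 37.8% and 16.1%, and for Col3a1 47.7% and 29.8%. Injury sample 1, the lowest of the 6 libraries for Col1a1 and Col1a2, was also the lowest for Col4a1 and Col4a2, but by less.

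The minor type IV chains were low and spread widely. Col4a3, Col4a4 and Col4a5, best known from kidney and eye basement membranes, and Col4a6, a partner of Col4a5, had mean levels between 0.0906 and 1.08 FPKM. Col4a5 was at 6.64, 7.24 and 5.08 CPM in injury and 11.5, 8.76 and 3.34 in conduit, with conduit sample 3 below all injury libraries. The same library was lowest of the 6 for Col4a3, at 2.28 CPM, Col4a4, at 0.301, and Col4a6, at 0.126. The class median over 6 chains was a log2 fold change of 0.32, and 0.81 within batch 2. Without conduit sample 1 it was 0.02, and with the labelled day in the fit it was 1.28.

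**Figure D3:**
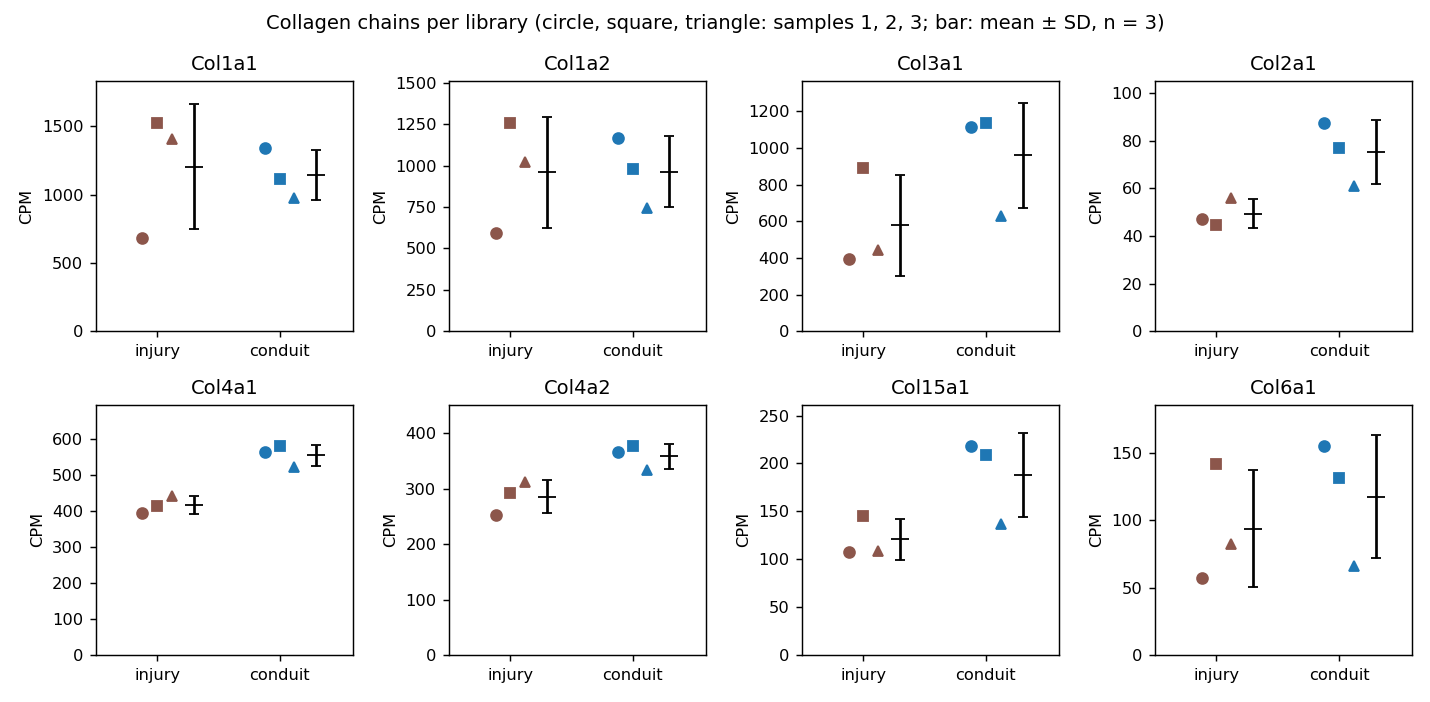
CPM of 8 collagen chains in each library (linear axes from 0), with the group mean ± SD (n = 3) beside the points. Conduit libraries lie above all injury libraries for Col4a1, Col4a2 and Col2a1, while Col1a1, Col1a2, Col3a1, Col15a1 and Col6a1 overlap.

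Among fibrillar collagens, type I did not separate the groups. Col1a1, whose product makes up most of the type I trimer, was at 683, 1526 and 1406 CPM in injury and 1339, 1112 and 975 in conduit. The conduit libraries all fell inside the injury range (log2 fold change -0.08, SE 0.30; edgeR adjusted p = 0.99981). Col1a2, its partner, was at 593, 1259 and 1024 CPM in injury and 1170, 978 and 745 in conduit, also within the injury range (0.01, SE 0.29; edgeR adjusted p = 0.99981). The sign for type I depended on the libraries used: Col1a1 ranged from -0.35 without injury sample 1 to 0.13 without injury sample 2. Col1a2 was -0.24 and 0.25 in the same order.

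Col3a1, which forms the fine reticular fibres, was at 392, 893 and 446 CPM in injury and 1113, 1137 and 629 in conduit. Conduit sample 3 lay below injury sample 2, so the groups overlapped (log2 fold change 0.73, SE 0.37; edgeR adjusted p = 0.99981; DESeq2 adjusted p = 0.544). Within batch 2 the difference was 1.32, and it was 1.20 without injury sample 2 and 0.53 without injury sample 1. Type V chains, which set fibril diameter, had smaller values: Col5a1 was 0.23 (SE 0.26) and Col5a2 0.07 (SE 0.29). Col5a3, a type V chain known from Schwann cells, was at 261, 375 and 426 CPM in injury and 426, 423 and 321 in conduit, with overlapping groups.

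Col2a1, the type II chain of cartilage, was higher in every conduit library. It was at 47.1, 44.5 and 56.1 CPM in injury and 87.5, 77.0 and 60.7 in conduit, that is 49.2 ± 6.06 and 75.1 ± 13.5 (SD, n = 3). The log2 fold change was 0.61 (SE 0.16; edgeR adjusted p = 0.627; DESeq2 adjusted p = 0.0425), 0.64 within batch 2 and 0.49 without conduit sample 1. The other cartilage chains were mixed: type IX, described with the fibril-binding chains, had positive values, and the type XI chains, which join type II within fibrils, negative ones. Col11a1 was at 17.4, 64.0 and 38.6 CPM in injury and 37.2, 29.7 and 18.8 in conduit, and Col11a2 at 10.8, 51.3 and 49.4 in injury and 34.1, 26.4 and 13.0 in conduit. Neither separated the groups (-0.49, SE 0.48, and -0.60, SE 0.62), and Col11a1 was 0.03 without injury sample 2. Nor did groups separate for the minor fibrillar chains Col24a1 (-0.05, SE 0.67) and Col27a1 (-0.33, SE 0.59). Col11a1 and Col11a2 were highest in injury sample 2. The fibrillar median over 11 chains was 0.00788, with 6 higher and 5 lower, and 0.00339 within batch 2. It ran from -0.24 without injury sample 1 to 0.26 without conduit sample 3, and was 0.25 without injury sample 2, 0.07 without injury sample 3 and -0.15 without conduit sample 1.

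Bone and cartilage markers were measured beside these chains. Of 15 tested markers 12 were lower in conduit, with a median log2 fold change of -1.50, and edgeR called 0. At an unadjusted edgeR p under 0.05, 6 were lower and 1 higher, beside 2.36% and 2.99% of all genes. Without overlap between groups 3 were lower and 1 higher, beside 4.22% and 5.41% of all genes. DESeq2 called 2 lower and 1 higher, beside 1.15% of all genes. The summed level was 967 to 1361 CPM in injury and 1013 to 1281 in conduit, most of it Spp1. Cnmd, chondromodulin of cartilage and the next most abundant of the list, was higher in every conduit library, as was Col2a1. It measured 181, 212 and 251 CPM in injury samples 1 to 3 and 373, 329 and 382 CPM in conduit samples 1 to 3 (0.75 on the log2 scale, SE 0.14; edgeR adjusted p = 0.368; DESeq2 adjusted p = 0.000134). Ibsp, bone sialoprotein, measured 8.60, 56.0 and 34.2 CPM in injury samples 1 to 3 and 3.57 to 6.83 CPM in the conduit samples, and so was highest in injury samples 2 and 3, as was Col11a2. Acan, the main cartilage proteoglycan, did not exceed 3.10 CPM, and Matn1, cartilage matrilin, did not exceed 0.145 CPM. Sox9, the transcription factor of cartilage cells, overlapped between groups at 1.86 to 4.44 CPM. The part of bone or cartilage in the fibrillar values was not tested.

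The other collagens had a median of 0.14 over 25 tested chains, with 18 higher and 7 lower. It was -0.06 without injury sample 1, -0.00777 without conduit sample 1, 0.08 without conduit sample 2, 0.36 without injury sample 2 and 0.35 within batch 2. Col15a1 and Col18a1, multiplexins that sit in basement membranes, were both higher in value. Col15a1 was at 108, 145 and 109 CPM in injury and 218, 209 and 137 in conduit. Conduit sample 3 lay just below injury sample 2, so the groups met (log2 fold change 0.64, SE 0.21; edgeR adjusted p = 0.791; 1.00 within batch 2). Col18a1, the source of endostatin, was at 58.7, 72.0 and 68.5 CPM in injury and 86.8, 71.1 and 76.1 in conduit (0.23, SE 0.11). Counted with type IV, these 2 chains left the median of the 8 at 0.32.

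Type VI collagen, which forms beaded filaments next to basement membranes, overlapped between groups for each of its chains. Col6a1 was at 57.3, 142 and 82.4 CPM in injury and 155, 132 and 66.4 in conduit. Its lowest library in each group was the one low in fibrillar collagen (log2 fold change 0.33, SE 0.42). Col6a2 (0.48, SE 0.38) and Col6a3 (0.22, SE 0.44), which complete the trimer, also overlapped, and all 5 tested type VI chains had positive values between 0.13 and 0.48.

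Chains that bind fibrils were mixed. Of 9 tested, 6 were higher and 3 lower. Col14a1, which binds type I fibrils, was at 98.1, 150 and 120 CPM in injury and 120, 107 and 86.0 in conduit (-0.23, SE 0.18). Col9a3, of the type IX trimer that coats type II fibrils, was 59.2 ± 11.5 CPM in injury and 65.2 ± 8.30 in conduit (SD, n = 3). Its partner Col9a1 had the highest value of any chain, 1.25 (SE 0.70), from 4.57, 5.65 and 13.7 CPM in injury and 22.0, 29.7 and 5.22 in conduit, with conduit sample 3 inside the injury range; it is named after its values were seen. So is Col22a1, a chain of the junction of muscle and tendon, which was highest in conduit sample 2 at 8.41 CPM. Skeletal muscle markers were highest in the same library, with a summed level of 9379 CPM. Injury sample 1 was next at 563 CPM, and the rest were at 7.71 to 17.5. Col22a1 was at 1.94 CPM in injury sample 1 and at 6.32 in injury sample 2, where the markers summed to 7.76. The 8 of 8 tested markers had positive values, with a conduit mean sum of 3135 ± 5408 CPM (SD, n = 3). Their part in the Col22a1 level was not tested.

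Membrane-spanning chains included Col23a1, at 101, 128 and 115 CPM in injury and 161, 122 and 143 in conduit (0.31, SE 0.14; edgeR adjusted p = 0.943). Conduit sample 2 fell below injury sample 2. Col13a1 had the lowest value of the 42 chains, -1.02 (SE 0.49; edgeR adjusted p = 0.99981). It was at 2.64, 6.86 and 6.89 CPM in injury and 3.84, 1.41 and 2.81 in conduit, so that injury sample 1 lay among the conduit libraries. Col8a1, a short chain of vascular and corneal matrix, was at 2.04, 13.3 and 3.74 CPM in injury and 6.998, 4.04 and 1.15 in conduit, and 1 library, injury sample 2, stood above the rest. Without injury sample 2 its value turned from -0.64 to 0.49. Col10a1, of hypertrophic cartilage, was higher in every conduit library but low, at 0.710 to 0.747 CPM in injury and 0.820 to 1.43 in conduit, from 29 to 57 counts a library. The other tested chains not named here overlapped between groups, with log2 differences from -0.30 for Col20a1 to 0.26 for Col25a1.

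The main chains of type I and of type IV kept close ratios within each trimer, as a description of 12 FPKM ratios formed after the levels had been seen. Col1a1 over Col1a2 was 0.883, 0.929 and 1.05 in injury and 0.878, 0.872 and 1.00 in conduit. Col4a1 over Col4a2 was 1.49, 1.36 and 1.36 in injury and 1.47, 1.47 and 1.50 in conduit. Not every pair did so: Col4a5 over Col4a6 ran from 9.48 to 29.3, on Col4a6 counts of only 5 to 52 a library. Close ratios were not limited to types I and IV: Col5a1 over Col5a2 ran from 0.663 to 0.825 and Col6a1 over Col6a2 from 1.07 to 1.44. Col3a1 over Col1a1, which pairs different trimers, was 0.701, 0.715 and 0.387 in injury and 1.01, 1.25 and 0.789 in conduit. Every conduit library had more type III per type I than every injury library, with means of 0.601 ± 0.185 and 1.02 ± 0.230 (SD, n = 3). With 3 libraries a group an exact permutation test can give no p under 0.1. Of the 12 ratios 2 lay higher in every conduit library, the other being Col5a1 over Col5a2, and 1 lower, Col6a3 over Col6a2.

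**Figure D4:**
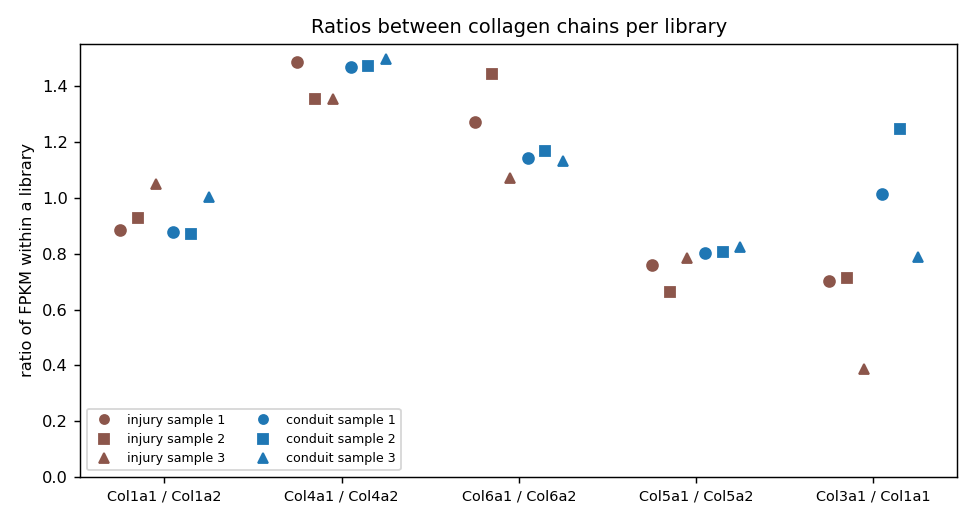
Ratio of FPKM values of 2 collagen chains within each library, on a linear axis from 0. Col1a1 over Col1a2 stays between 0.872 and 1.05, whereas Col3a1 over Col1a1 runs from 0.387 in injury sample 3 to 1.25 in conduit sample 2, with conduit above injury.

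Summed levels placed the classes beside cell-type markers. Type IV chains summed to 659, 719 and 765 CPM in injury and 952, 973 and 862 in conduit, without overlap. Most of that sum was Col4a1 and Col4a2, with means of 417 and 286 CPM in injury and 556 and 359 in conduit. The sum thus restates the separation of these chains, while the minor type IV chains each overlapped between groups. Schwann cell markers also summed without overlap, to 25858 to 30673 CPM in injury and 38082 to 43744 in conduit, with 8 of 10 higher. Endothelial markers overlapped, at 261 to 320 CPM in injury and 263 to 374 in conduit, with 8 of 10 higher. Fibroblast markers overlapped too, at 1172 to 1626 CPM in injury and 1035 to 1960 in conduit, with 7 of 10 higher, and were highest in conduit sample 1. Pericyte and smooth muscle markers summed to 261 to 481 CPM among injury and 225 to 628 among conduit libraries, with 7 of 10 higher. No marker of these 4 lists was at 0 in all libraries. The part of any of these cell types in the type IV values was not tested.

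**Figure D5:**
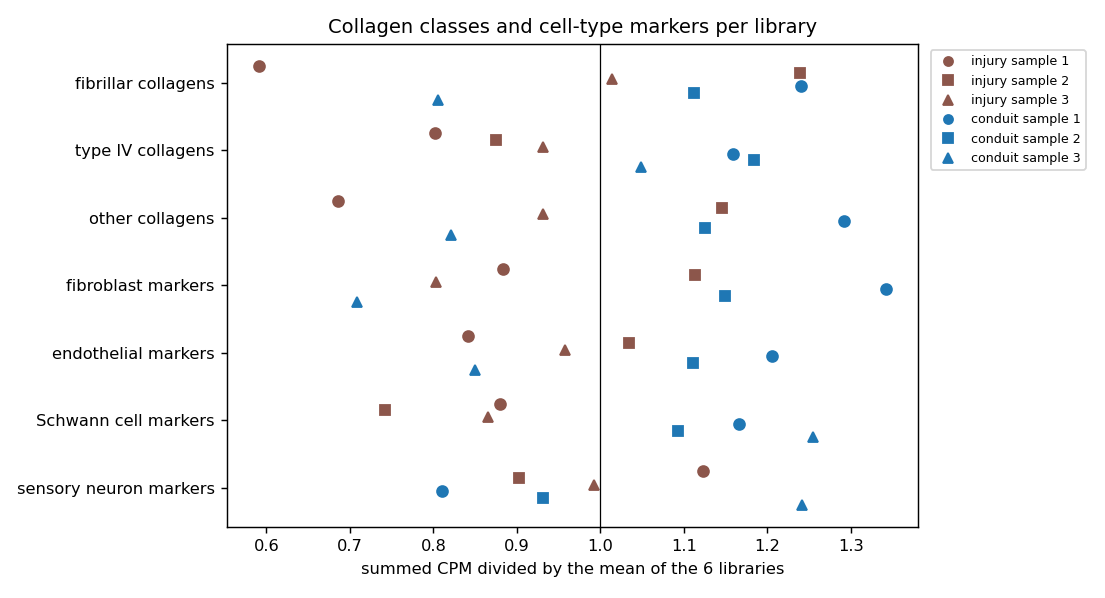
Summed CPM of each collagen class and of 4 marker lists per library, divided by the mean of the 6 libraries. Type IV chains and Schwann cell markers place all conduit libraries to the right of all injury libraries, while fibrillar and other collagens, fibroblast and endothelial markers overlap between groups. The type IV sum is mostly Col4a1 and Col4a2.

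Genes that fold collagen included the pathway members nearest to the threshold. Of 22 tested genes of folding and hydroxylation 13 were higher and 9 lower, with a median of 0.06, and edgeR called 0. Below an unadjusted edgeR p of 0.05 were 3 of the 22, all higher, beside 2.99% of all genes, and DESeq2 called 2 of them, Serpinh1 and P4ha1, beside 1.15% of all genes. Serpinh1, the HSP47 chaperone, was at 245, 245 and 269 CPM in injury and 413, 384 and 379 in conduit (0.63 on the log2 scale, SE 0.08; edgeR adjusted p = 0.146; DESeq2 adjusted p = 8.71e-10). P4ha1, which hydroxylates proline, was at 57.0, 58.8 and 59.9 CPM in injury and 83.1, 76.5 and 79.7 in conduit (0.45, SE 0.07; edgeR adjusted p = 0.309; DESeq2 adjusted p = 6.97e-05). Plod3, a lysyl hydroxylase and glycosyltransferase, was 44.7 ± 1.46 and 51.4 ± 2.28 CPM (SD, n = 3). None of the 3 overlapped between groups, and 5.41% of all genes likewise lay higher in every conduit library. These genes serve all collagen classes, type I included.

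Enzymes that trim and crosslink procollagen had a median of -0.07 over 13 genes, with 4 higher and 9 lower. Neither edgeR nor DESeq2 called any, and 0 had an unadjusted edgeR p under 0.05. Basal lamina partners of type IV collagen had a median of 0.27, with 12 of 15 higher. Neither tool called any, and 1 gene of the 15 was higher with an unadjusted edgeR p below 0.05, beside 2.99% of all genes. That gene was Lamb1, a laminin chain, at 243, 309 and 305 CPM in injury and 390, 350 and 328 in conduit. Nid1, which links laminin to type IV collagen, was 292 ± 46.6 and 385 ± 78.1 CPM, and Hspg2, perlecan, 407 ± 79.5 and 514 ± 62.3 (SD, n = 3). Proteins bound to fibrils had a median of 0.21, with 9 of 14 higher, and neither tool called any. Sparc, a collagen-binding matrix protein, alone had an unadjusted edgeR p below 0.05, beside 2.99% of all genes higher at that level. Sparc was 2652 ± 61.5 CPM in injury and 3103 ± 98.4 in conduit, higher in every conduit library as were 5.41% of all genes.

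Receptors for collagen had a median of 0.02 over 13 genes, with 7 higher and 6 lower, and neither tool called any. An unadjusted edgeR p below 0.05 was found for 1 gene, which was lower, beside 2.36% of all genes. It was Itga10, a collagen-binding integrin of cartilage, which measured 0.423, 3.00 and 2.14 CPM across the injury libraries against 0.352 to 0.555 across the conduit libraries. Itgb1 of the same list was higher in every conduit library, as were 5.41% of all genes, at 390 to 411 CPM in injury and 426 to 446 in conduit. Collagen-degrading enzymes and their inhibitors had a median of 0.04 over 13 genes, with 8 higher and 5 lower. EdgeR called 0; its unadjusted p was below 0.05 for 3 of the 13, all lower (Mmp9, Mmp8 and Mmp13), beside 2.36% of all genes. DESeq2 called Mmp9 alone, beside 1.15% of all genes. Mmp9, a gelatinase, was at 2.21, 21.9 and 24.1 CPM in injury and 1.13, 0.979 and 2.41 in conduit. Mmp8, neutrophil collagenase, was at 2.54, 40.4 and 6.68 CPM in injury and 0.603, 2.46 and 0.879 in conduit. Mmp13, the collagenase of bone and cartilage, was at 23.7, 19.6 and 50.2 CPM in injury and 18.2, 4.50 and 10.7 in conduit. Mmp8 and Mmp13 were lower in every conduit library, as were 4.22% of all genes, and Mmp9 overlapped, through injury sample 1. The more abundant Mmp15 was higher in every conduit library, as were 5.41% of all genes. It was at 315, 272 and 306 CPM in injury and 323, 323 and 388 in conduit (0.21, SE 0.11). Markers of red blood cells, measured beside these enzymes, were lower in conduit for 10 of 10 genes, with sums of 4472 to 5332 CPM in injury and 513 to 1275 in conduit. Proliferation markers were also lower for 10 of 10 genes, with sums of 75.2 and 115 CPM in injury samples 3 and 2 and 18.9 to 28.6 in the other 4 libraries. Their part in the Mmp values was not tested.

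Genes of TGF-beta signalling, the main inducer of fibrillar collagen genes in fibroblasts, had a median of -0.07 over 14 genes, with 6 higher and 8 lower. EdgeR called 0. Tgfbr2 alone of the 14 had an unadjusted edgeR p below 0.05, beside 2.99% of all genes higher at that level, and a DESeq2 call, beside 1.15%. It is a receptor subunit and was at 157, 160 and 152 CPM in injury and 217, 190 and 187 in conduit (a log2 difference of 0.34, SE 0.09; edgeR adjusted p = 0.65; DESeq2 adjusted p = 0.0441). Ltbp1, which stores the ligand in the matrix, and Smad3, which carries its signal to the nucleus, overlapped between groups (0.35, SE 0.26, and 0.24, SE 0.19).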

How the data were processed

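Purified mRNA of 6 trigeminal ganglion samples was sequenced in read pairs, per the labels' protocols. HISAT2, HTSeq, SAMtools, fastp, DESeq2 and the build mRatBN7.2 are named in the submitters' processing notes, while tool versions, gene annotation and strandedness were not given in the sources. The authors deposited counts as unscaled whole numbers per gene symbol. Their deposited FPKM values restate these counts by gene length and depth: count and FPKM gave 1 gene length in every library for 21964 of 21964 genes (within 0.1%), so they are no second measurement.

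Analyses used R 4.3.3, edgeR 4.0.16, limma 3.58.1 and DESeq2 1.42.0. Genes passing filterByExpr (minimum count 10; 16478 genes) were scaled by TMM and compared, conduit against injury, by edgeR's quasi-likelihood test (robust, groups only) with Benjamini-Hochberg adjustment over all genes tested, with 0.05 as the threshold. Fold changes are edgeR's log2 values; CPM are TMM-scaled; batch 2 values are differences of log2 CPM with a prior count of 2. The fit was tested on simulated data. Groups and replicate numbers came from sample titles. Named chains were the 5 given markers, up to 6 per class by mean FPKM, the 5 smallest p-values per direction and their trimer partners; named pathway genes were the 3 smallest p-values per list. The members and lists were chosen with earlier results of these data known. Exceptions named for their values were Col8a2, Col9a1, Col10a1, Col17a1, Col18a1, Col20a1, Col22a1, Col24a1, Col25a1, Col27a1, Col6a4, Ibsp, Acan, Matn1, Sox9, Mmp15 and Itgb1. Promoter windows are RefSeq's for GRCr8. Alternatives were other scalings, filters and tools, limma on log2 FPKM (pseudocounts 1 and 0.1), the replicate block, batch or day in the fit, and libraries left out.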

Additional observations from a re-analysis of the deposited data

How the results depend on the processing

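Over the 20 alternatives Col4a1, Col4a2, Col2a1, Col3a1 and Col15a1 kept a positive difference in each. The edgeR adjusted p did not pass for any collagen in any edgeR or limma alternative, whereas DESeq2 called 2 chains higher and 0 lower; the adjusted p ran from 0.00165 to 0.9999 for Col4a1 and from 0.0425 to 0.9999 for Col2a1. The type IV median was 1.28 with labelled day in the fit; the cause was not tested. Log2 differences that turned sign were as follows, and the cause was not tested. Col1a2 (0.00788) was -0.020 with upper quartile scaling, -0.0036 on log2(FPKM + 1), -0.0034 on log2(FPKM + 0.1), -0.0024 with day and -0.083 with injury sample 1 and conduit sample 3 left out, an alternative chosen after seeing the data. Col4a4 was -0.048 with limma-voom and -0.066 on log2(FPKM + 0.1). Col5a3 was -0.0028 with batch in the fit, -0.071 with day and -0.0028 in batch 2 alone. Col8a1 was 0.91, 1.06 and 0.90, and Col4a6 1.45, 2.39 and 1.36, in the same order, with Col4a6 at 0.46 without those 2 samples. Col9a3 was -0.016 with day. Batches 1 and 3 each held a single group, so batch in the fit and batch 2 alone both compare conduit sample 1 with injury sample 3. They are therefore not independent alternatives.

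Leaving out 1 library at a time, the called counts stayed at 0, and values that turned sign ranged from -0.35 to 0.13 for Col1a1, -0.24 to 0.25 for Col1a2, -0.031 to 0.29 for Col5a3, -0.15 to 0.35 for Col5a2, -0.058 to 0.66 for Col6a3, -0.84 to 0.027 for Col11a1, -1.29 to 0.49 for Col8a1, -0.062 to 0.68 for Col4a5, -0.21 to 0.47 for Col4a4 and -1.16 to 0.35 for Col4a6.

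Same-numbered samples did not deviate together (correlations -0.42, 0.06 and -0.07). Such correlations cannot show whether equal numbers mark a shared animal, litter or day, which the labels do not say. With the replicate block 0 chains were called, the class medians were 0.04, 0.25 and 0.15, and Col4a4 was -0.027. Depth limits the rarest chains: beside the 2 untested ones, Col7a1, Col4a6, Col4a4 and Col10a1 summed to 155, 160, 176 and 224 counts over the 6 libraries.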
